A study of Oryza sativa with 4 samples.

Results

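The regions described are the MADS27 peaks on the short arms of rice chromosomes 4 and 10. They were taken by position alone from both peak lists of the series. A peak belonged when its summit lay below 7.7 Mb on chromosome 4 or below 6.2 Mb on chromosome 10, which leaves out the pericentromere. This gave 3805 of 72738 peaks in replicate 1 (5.23%) and 3928 of 73366 in replicate 2 (5.35%). Chromosome 4 held 2568 and 2676 of them, and chromosome 10 held 1237 and 1252. The reference was the long arm of the same chromosomes, above 11.7 Mb on chromosome 4 and above 10.2 Mb on chromosome 10, with 6581 and 6623 peaks.

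The series is a chromatin immunoprecipitation experiment followed by sequencing (ChIP-seq) that asked where OsMADS27 sits in the genome, as part of work on nitrate response. It holds 2 libraries from the Myc pull-down and 2 from input chromatin. All 4 came from young regenerating seedlings of the indica cultivar Pusa Basmati 1 (PB1), grown on Murashige-Skoog medium with no treatment, from a transgenic plant overexpressing OsMADS27 with an N-terminal 3xMyc tag. The labels name neither the promoter of the transgene nor the age of the seedlings, and no library of untagged plants was used here. The input libraries carry the same transgene and enter through the peak lists, as the control of the same replicate number. Nothing in the labels says whether the replicates came from separate plants or separate pull-downs, so the spread between them may be technical.

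OsMADS27 belongs to the MADS-domain transcription factors and to the clade of Arabidopsis ANR1, a regulator of root growth under nitrate. MADS-domain proteins bind DNA as dimers at CArG boxes, short AT-rich elements flanked by C and G. In rice, the short arms of chromosomes 4 and 10 are known from cytology to stain as heterochromatin along much of their length. They are rich in transposable elements and poor in active genes, while the long arms of both chromosomes are mostly euchromatic. The lists hold no chromatin mark and no gene annotation of their build, so the label heterochromatic was not checked here.

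With excess duplicates removed, 136923044 and 130482505 pulled-down tags and 131452322 and 127964706 input tags stood behind the lists. A summit can hold at most 500 tags, because tags are 50 bp long on both strands and at most 5 were kept at one position. The genome-wide input average was 16.4 and 16.0 tags over a position. Coordinates are those of the lists, for which the sources used here name no genome build, and no sequence or gene was read from them. The 95% intervals cover counting error alone. Those for peak densities and shares take peaks as independent of each other, although peaks lie in clusters. At 2200 distinct shared short-arm peaks the tag numbers of the replicates differed with 0.563 times the variance of Poisson sampling, and with 0.499 times at the 97 of them with a mean under 100 tags. The replicates thus differed by less than the sampling noise and are counted as 1 sample, with both values given. A limit on tags per position and a choice of pairs listed in both also bear on this variance, and their part was not tested. Arms are therefore compared without a p-value, and even as 2 samples they could not go below an exact two-sided permutation p of 0.5. At the limits of the arms, the last peaks inside on chromosome 4 had summits at 7699757 and 7699756 (folds 1.53 and 1.89), and the first outside at 7704591 and 7704421 (folds 1.81 and 1.95). The last inside on chromosome 10 lay at 6185630 and 6185631 (folds 1.90 and 2.10), and the first outside at 6202039 and 6206004 (folds 1.59 and 1.96).

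Peaks were denser on both short arms than on the long arms of the same chromosomes, in both lists. The short arm of chromosome 4 held 334 peaks per Mb in replicate 1 (exact Poisson interval 321 to 347) and 348 in replicate 2 (334 to 361). The long arm of chromosome 4 held 199 in both (193 to 204 and 194 to 205). The ratio of short to long arm was 1.68 and 1.74. On chromosome 10 the short arm held 199.5 peaks per Mb (189 to 211) and 202 (191 to 213), against 143 (137 to 150) and 145 (138 to 152) on the long arm, a ratio of 1.40 and 1.39. The short arm of chromosome 10 was thus about as dense as the long arm of chromosome 4. The intervals of short and long arms did not overlap on either chromosome, but they are too narrow for clustered peaks. Depending on arm and list, 76.0% to 87.9% of peaks had a neighbour within 1 kb. Over both chromosomes the ratio was 1.53 and 1.57, and peaks covered 28.0 and 29.2 kb per Mb of short arm against 19.2 and 19.3 kb per Mb of long arm.

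The stretches between the arms, which hold the centromeres, were denser still. On chromosome 4 they held 357 and 373 peaks per Mb, close to the values of its short arm. On chromosome 10 they held 397 and 421, well above those of its short arm. The short arm of chromosome 4 therefore stood near the pericentromere in peak density, and that of chromosome 10 stood nearer to the long arms.

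Density varied along each short arm in the same way in both lists. In the 15 full windows of 500 kb on the short arm of chromosome 4, the lowest count was 107, the median 152 and the highest 248 in replicate 1. In replicate 2 they were 97, 158 and 270. The 47 windows of the long arm ran from 20 to 202 with a median of 99 in replicate 1, and from 16 to 202 with the same median in replicate 2. The windows of both arms overlapped, but 15 and 14 of the 15 short-arm windows lay above the long-arm median, and 4 in each list lay above the highest long-arm window. On chromosome 10 the 12 short-arm windows ran from 47 to 204 (median 94) and from 49 to 201 (median 93.5), against 20 to 192 (median 74) and 26 to 204 (median 73) in the 25 long-arm windows. Here 7 and 8 of the 12 lay above the long-arm median, so the overlap was larger than on chromosome 4. Spearman's rho between the lists was 0.98 over the short-arm windows of chromosome 4 and 0.99 over those of chromosome 10, a description over windows whose peaks were largely the same regions.

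**Figure D1:**
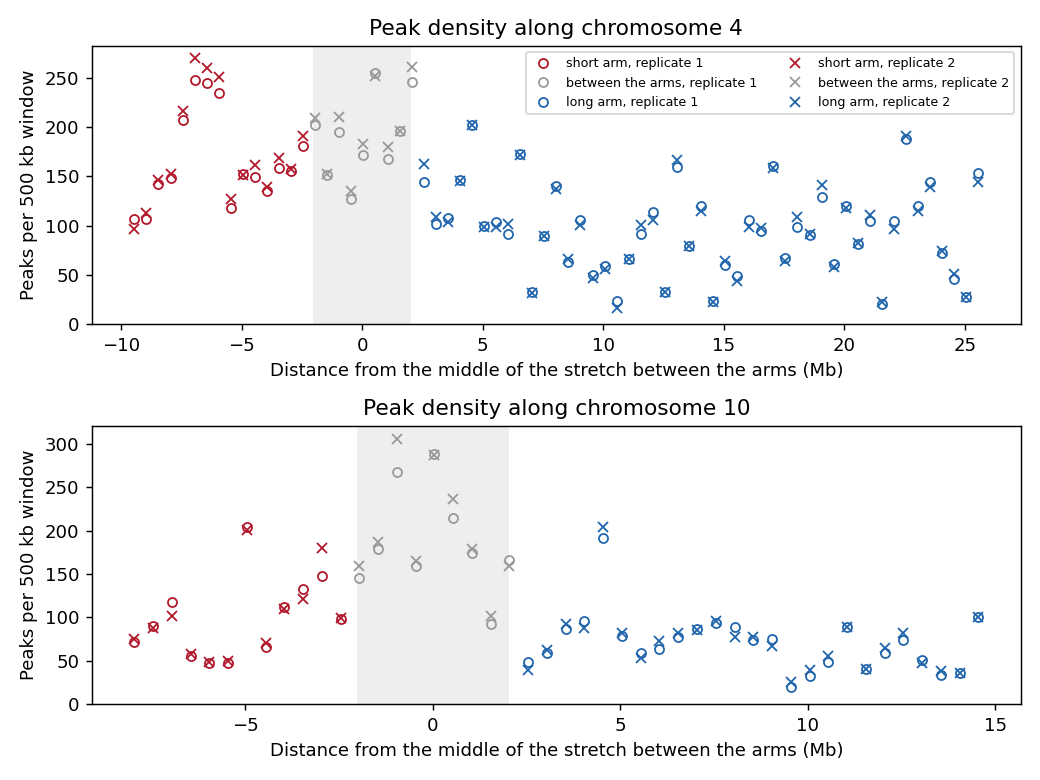
Peaks per 500 kb window (vertical axis, counts) against the distance of the window from the middle of the stretch between the arms (horizontal axis, Mb), with short-arm windows in red on the left, long-arm windows in blue on the right, and windows between or across the limits in grey; circles are replicate 1 and crosses replicate 2. On chromosome 4 the short-arm windows hold 97 to 270 peaks, and on chromosome 10 they hold 47 to 204. The highest of chromosome 10 is 3 to 3.5 Mb (204 and 201), followed by 5 to 5.5 Mb (148 and 180).

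The densest window of the short arm of chromosome 4 was 2.5 to 3 Mb, with 248 and 270 peaks, and the sparsest was its tip, 0 to 0.5 Mb, with 107 and 97. On chromosome 10 the densest was 3 to 3.5 Mb, with 204 and 201 peaks, and the sparsest 2 to 2.5 Mb, with 48 and 49. These 2 windows of chromosome 10 lie 0.5 Mb apart and differed in background as well. The median input background at their peaks was 12.1 and 12.9 times the genome-wide average in the dense window, and 6.09 and 5.38 times in the sparse one. At a finer scale, chosen after the values were seen, 3.2 to 3.3 Mb on chromosome 10 held 97 and 99 peaks in 100 kb, of which 41 and 44 had a background of at least 15 times the average. That count was above all 129 long-arm windows of 100 kb on chromosome 10, whose highest were 76 and 81. On chromosome 4, 3.3 to 3.4 Mb held 80 and 97 peaks, below the highest long-arm windows of 108 and 117.

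Peaks were spread more evenly on the short arms. The mean distance between neighbouring summits on chromosome 4 was 2995 bp and 2873 bp on the short arm, against 5034 bp and 5021 bp on the long arm. The median distance went the other way, at 599 and 559 bp on the short arm against 513 and 492.5 bp on the long arm. Long-arm peaks thus sat in tighter clusters with wider empty stretches between them. Gaps of at least 20 kb made up 47.3% and 47.1% of the short arm of chromosome 4, against 75.7% and 76.3% of its long arm. On chromosome 10 they made up 63.5% and 63.4% of the short arm, against 79.0% and 79.4% of the long arm. The longest gap on the short arm of chromosome 4 was 134078 bp (893737 to 1027815) in replicate 1, and nearly the same stretch in replicate 2. On the long arm the longest gaps were 334610 and 268204 bp. Peaks without a neighbour within 10 kb were 0.818% and 1.38% of the short-arm peaks of chromosome 4, against 2.31% and 2.07% on its long arm. On chromosome 10 they were 2.43% and 3.04% against 3.83% and 3.77%.

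The local input background was higher at short-arm peaks. Its lowest value in either list was 1.00 times the genome-wide average, so input below that average cannot be seen. The local input background, recomputed from pileup and fold enrichment, had a median of 150 and 147 tags on the short arm of chromosome 4, against 142 and 136 on its long arm. On chromosome 10 it was 147 and 145 tags on the short arm against 132 and 126 on the long arm. The ratio over both chromosomes was 1.07 and 1.11, and the quartiles of short and long arms overlapped widely. When limited to folds of at least 2 the ratio turned in replicate 1, at 0.979, and was 1.03 in replicate 2. The difference was larger at the top. A background of at least 15 times the average was found at 682 short-arm peaks in replicate 1 (17.9%) and 745 in replicate 2 (19.0%), against 14.3% of long-arm peaks in both lists. Over all peaks of the series the shares were 15% and 15.6%, and in the stretches between the arms they were 20.5% and 21.1%. The highest background of each whole list occurred on a short arm, though not there alone. In replicate 1 it was 418 tags, 25.4 times the average, on chromosome 4 at 3187068 to 3187139. In replicate 2 it was 428 tags, 26.8 times, on chromosome 10 at 5080980 to 5081044. Both of these peaks had the full 500 pulled-down tags and folds of 1.15.

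The excess of peaks on the short arms was largest in the band of highest background on both chromosomes, and the bands below it were ordered differently on each. Below 2 times the average, the short arms held 8.06 and 9.06 peaks per Mb (intervals 6.63 to 9.70 and 7.55 to 10.8), against 6.74 and 7.61 on the long arms (5.93 to 7.64 and 6.75 to 8.56). These intervals overlapped, and the ratio was 1.2 and 1.19. From 2 to 5 times the ratio was 1.47 and 1.39, from 5 to 10 times 1.44 and 1.46, and from 10 to 15 times 1.54 and 1.63. At 15 times and above it reached 1.92 and 2.09, with 49.1 and 53.6 peaks per Mb on short arms against 25.5 and 25.7 on long arms. On chromosome 4 the ratio was lowest below 2 times, at 1.23 and 1.07, and higher in each band above it. On chromosome 10 it was lowest from 5 to 10 times, at 1.15 and 1.11, against 1.17 and 1.26 below 2 times and 1.44 and 1.43 from 2 to 5 times. From 5 to 10 times the ratio on chromosome 4 was 1.67 and 1.74. Peaks of low background made up 2.94% and 3.21% of the short-arm peaks, against 3.77% and 4.23% of the long-arm peaks and 3.72% and 3.99% of all peaks.

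**Figure D2:**
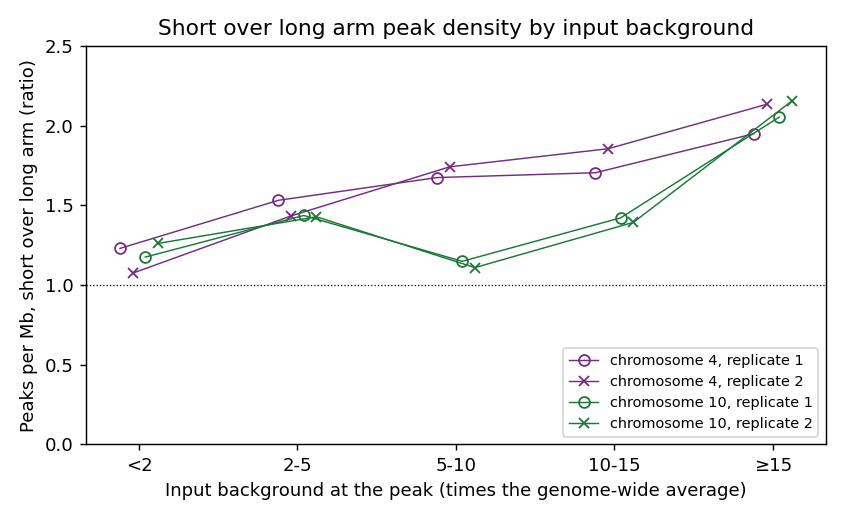
Ratio of peaks per Mb on the short arm to peaks per Mb on the long arm (vertical axis) in 5 bands of input background at the peak (horizontal axis, times the genome-wide average), for chromosome 4 (purple) and chromosome 10 (green), with circles for replicate 1 and crosses for replicate 2. All ratios lie above the dotted line at 1, and the highest, from 1.95 to 2.15, are in the band of 15 times and above.

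Many short-arm summits lay close to the limit of 500 tags. At least 450 tags were found at 292 short-arm peaks in replicate 1 (7.67%, Wilson interval 6.87 to 8.56%) and 319 in replicate 2 (8.12%, 7.31 to 9.02%). On the long arms the shares were 4.85% (4.35 to 5.39%) and 4.17% (3.71 to 4.68%), and over all peaks 5.68% and 5.14%. Per Mb this was 21.0 and 23.0 on short arms against 8.67 and 7.5 on long arms. In the stretches between the arms the share was 8.33% and 8.13%, so such summits were not particular to the short arms. The short arm of chromosome 10 had the larger share, 9.22% and 10.1% against 4.85% and 3.72% on its long arm. On chromosome 4 the shares were 6.93% and 7.17% against 4.85% and 4.35%. At such summits the limit on tags bounds the fold that can be called.

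Enrichment over input was slightly lower on the short arms. The deposited fold enrichment is the pileup plus 1 divided by the local background plus 1, as called by the authors. Its median was 1.76 and 1.79 on the short arms (quartiles 1.48 to 2.09 and 1.5 to 2.12), against 1.81 and 1.86 on the long arms (1.54 to 2.14 and 1.56 to 2.22). The difference of the medians was -0.04 in replicate 1 and -0.07 in replicate 2, small against the range of folds within either arm. On chromosome 4 it was -0.03 and -0.06, and on chromosome 10 it was -0.08 and -0.10. Within bands of background from 2 times upward it was between -0.10 and -0.01 in both lists. Below 2 times it had the other sign, with medians of 2.46 and 2.59 on the short arms against 2.4 and 2.5 on the long arms. That sign was found on chromosome 10, where 46 and 68 low-background short-arm peaks had medians of 2.51 and 2.60, against 2.32 and 2.31 for 82 and 113 on the long arm. On chromosome 4 the difference kept its negative sign, with medians of 2.41 and 2.58 for 66 and 58 short-arm peaks, against 2.42 and 2.60 on the long arm. When limited to folds of at least 2, the sign was not the same in the lists, at 0.01 in replicate 1 and -0.03 in replicate 2. In the stretches between the arms the median fold of all peaks was 1.72 and 1.78, also below that of the long arms.

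Peaks of high fold were few on short and long arms alike. A fold of at least 3 was reached by 86 short-arm peaks in replicate 1 (2.26%) and 109 in replicate 2 (2.77%), against 2.49% and 3.41% of long-arm peaks and 2.15% and 3.03% of all peaks. Their density was 6.19 and 7.84 per Mb on short arms (4.95 to 7.64 and 6.44 to 9.46) against 4.46 and 6.14 per Mb on long arms (3.80 to 5.20 and 5.37 to 7.0). The intervals overlapped in both lists. In both lists at once, 27 short-arm pairs and 53 long-arm pairs had folds of at least 3. The highest fold of a single list on the short arms was 4.63 in replicate 1, on chromosome 4 at 4960444 to 4960497, from 99 tags over a background of 19.7. In replicate 2 it was 3.98, on chromosome 10 at 4887984 to 4888217, from 129 tags over 31. Neither reached the highest folds of the whole lists, 7.04 and 5.98.

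Shared peaks are those that a peak of the other list overlaps over 50% or more of the shorter one's length. On the short arms 2963 peaks of replicate 1 (77.9%, 76.5 to 79.2%) and 2951 of replicate 2 (75.1%, 73.8 to 76.5%) were shared. The long arms had 78.6% (77.6 to 79.6%) and 77.6% (76.6 to 78.6%), and all peaks 77.2% and 76.2%. In the stretches between the arms the shares were 78.0% and 73.9%. A lower share in replicate 2 was thus not particular to the short arms. Those stretches were not divided into bands of background. The difference between short and long arms was -0.76 and -2.48 percentage points, and the shares of the short arms were near those of the whole lists. On chromosome 10 it was -2.78 and -2.50 points, from 73.7% and 72.2% against 76.5% and 74.7%. On chromosome 4 the lists went apart, at 0.40 points in replicate 1 and -2.26 points in replicate 2.

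On the short arms, the lists differed most in their shares where background was highest. At 15 times the average and above, 86.7% of the short-arm peaks of replicate 1 were shared (83.9 to 89.0%), but 77.7% of those of replicate 2 (74.6 to 80.6%). On the long arms the shares were 85.3% (82.9 to 87.4%) and 85.5% (83.1 to 87.6%). Below 2 times the average they were 42.9% and 36.5% on the short arms, against 44.0% and 38.9% on the long arms. The lower share on the short arms in replicate 2 was found on both chromosomes, at 79.0% against 86.4% on chromosome 4 and 75.7% against 83.3% on chromosome 10. Peaks of at least 450 tags showed the same, with 90.4% and 76.8% shared on the short arms against 91.2% and 87.0% on the long arms. Replicate 2 thus listed short-arm peaks near the tag limit that had no partner in replicate 1. Absence from the other list is no measure of absent enrichment. Among the shared pairs of the short arms, the summits lay a median of 1 bp apart. Spearman's rho across these 2963 pairs was 0.85 for fold enrichment and 0.97 for background, a description of pairs that share libraries.

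**Figure D3:**
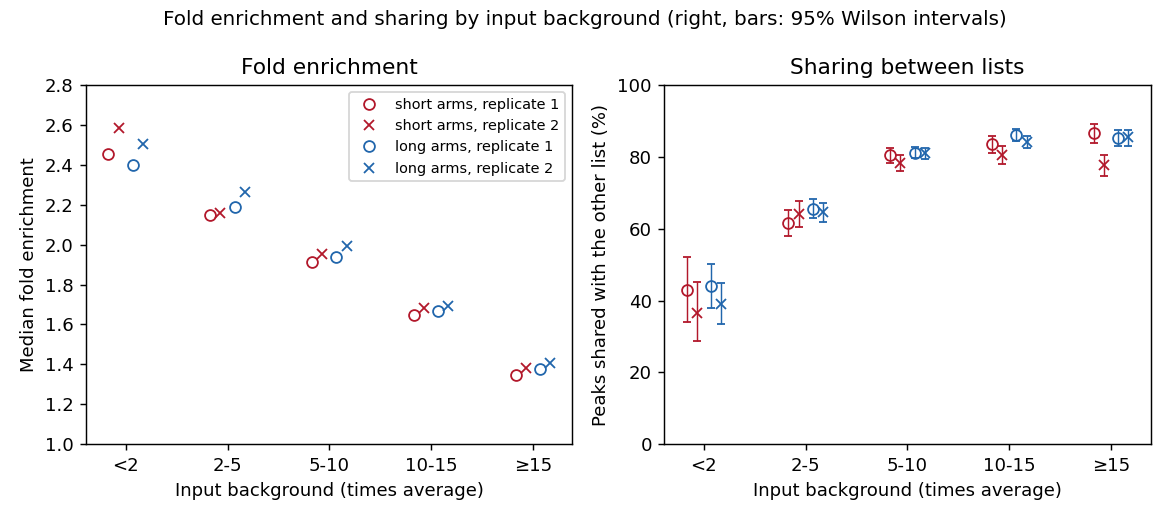
Left, median fold enrichment (vertical axis, ratio); right, percentage of peaks shared with the other list (vertical axis, with Wilson intervals), each by band of input background (horizontal axis, times the genome-wide average), with short arms in red, long arms in blue, circles for replicate 1 and crosses for replicate 2. Medians fall with background on both arms, and the short-arm share of replicate 2 at 15 times and above, 77.7%, lies below the other 3 values in that band, 85.3 to 86.7%.

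Widths were alike in the median and differed among the widest peaks. The median was 89 bp on the short arms in both lists and 90 bp on the long arms. Peaks of at least 200 bp were more frequent per Mb on the short arm of chromosome 4, with 27.1 and 27.4 per Mb (23.6 to 31.1 and 23.8 to 31.4), against 16.3 and 17.9 on its long arm (14.8 to 18.1 and 16.3 to 19.7). On chromosome 10 they were less frequent, with 7.26 and 9.52 per Mb (5.29 to 9.71 and 7.24 to 12.3), against 9.09 and 10.4 on the long arm (7.52 to 10.9 and 8.72 to 12.3). The intervals overlapped in both lists there. As a share of the peaks of an arm, wide peaks were no more frequent on the short arm of chromosome 4, at 8.14% and 7.88% against 8.23% and 9.01% on its long arm. They made up a smaller share on the short arm of chromosome 10, at 3.64% (2.73 to 4.83%) and 4.71% (3.67 to 6.03%), against 6.36% (5.34 to 7.56%) and 7.17% (6.09 to 8.43%) on its long arm, with no overlap of the intervals. Over all peaks of the series the shares were 7.07% and 7.74%.

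**Figure D4:**
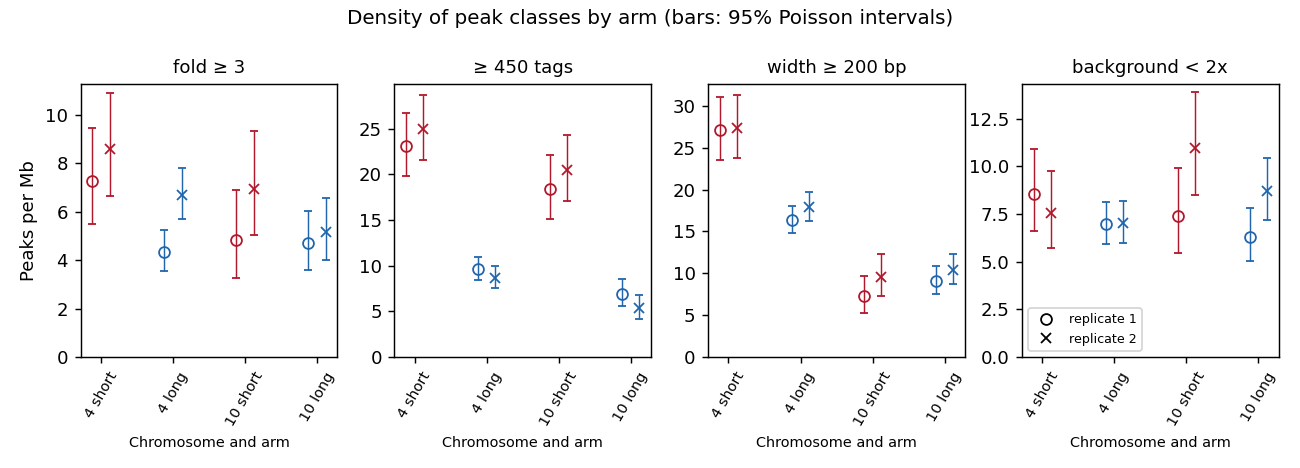
Peaks per Mb (vertical axes, each from 0) in 4 classes, for the short (red) and long (blue) arms of chromosomes 4 and 10, with circles for replicate 1, crosses for replicate 2 and bars for exact Poisson intervals. Peaks of at least 450 tags are at 18.4 to 24.9 per Mb on short arms and 5.39 to 9.62 per Mb on long arms, while intervals overlap for backgrounds under 2 times the average.

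The 5 shared peaks of each short arm with the highest smaller-of-both fold were 50 to 218 bp wide and lay over backgrounds of at most 4.56 times the average. On chromosome 4 the first was 2087383 to 2087432, where replicate 1 had 65 tags (exact Poisson interval 50.2 to 82.8) and replicate 2 had 73 (57.2 to 91.8). Its background was 16.4 and 18.0 tags, and its folds were 3.64 and 3.82. The value of replicate 1 is the lowest background that its list holds, the genome-wide average, so the input there may have been lower. The next, 2090614 to 2090671, lies about 3 kb away and held 131 tags (110 to 155) and 124 (103 to 148), with folds of 4.09 and 3.61. The intervals of the 2 lists overlapped at both peaks. At 6528628 to 6528759 there were 80 and 71 tags, and the folds were 4.46 and 3.53, with the same lowest background of 16.4 tags in replicate 1. The regions at 7237303 to 7237362 and 4813459 to 4813513 had folds of 3.32 and 3.32, and of 3.24 and 3.81. The highest background among these 5 was 3.10 times the average, at 7237303 to 7237362.

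The first on chromosome 10 was 4351375 to 4351509, with 68 tags (52.8 to 86.2) and 67 (51.9 to 85.1) over backgrounds of 18.0 and 17.0, and folds of 3.49 and 3.71. Its summits lay 101 bp apart in the lists, although its limits differed by at most 4 bp. The region 3724537 to 3724587 held 95 tags (76.9 to 116) and 112 (92.2 to 135), with folds of 3.41 and 3.46. The region 749924 to 749978 held 255 tags (225 to 288) and 230 (201 to 262) over 75 and 67, with folds of 3.23 and 3.33. The other 2 were 901983 to 902197, with folds of 3.44 and 3.17, and 6181582 to 6181636, with folds of 3.17 and 3.16, close to the limit of the arm. Among these 10 peaks the tag numbers and folds of both lists were found at no other shared peak of the series.

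The most significant and the widest shared peaks were of another kind. The highest smaller-of-both −log10 q on chromosome 4 was at 5365697 to 5365810, with 69.1 and 78.5, from 438 tags (398 to 481) and 421 (382 to 463) over backgrounds of 146 and 131. Its folds were 2.87 and 3.14, and 22 other shared peaks of the series had the same tag numbers and folds in both lists. On chromosome 10 it was at 1039957 to 1040174, with 53.8 and 60.9, from 332 tags (297 to 370) and 329 (294 to 367), and folds of 2.91 and 3.11. This peak had 3 such counterparts. The widest shared peak of the short arm of chromosome 4 spanned 1058862 to 1059566, 705 and 704 bp, with folds of 1.36 and 1.53, and had 15 counterparts with the same tags and folds. The widest on chromosome 10 was 4042768 to 4043132, 365 and 361 bp, with 465 and 462 tags and folds of 1.35 and 1.30.

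Sets of peaks with identical values made up a slightly smaller share of the short-arm pairs, and the difference was near its counting error. A shared pair counted as identical when its tag number, fold and width equalled those of another pair anywhere in the genome, in both lists at once. This held for 272 of the 2963 short-arm pairs (9.18%, 8.19 to 10.3%), against 552 of 5175 on the long arms (10.7%, 9.85 to 11.5%) and 11.3% of all pairs. The difference was -1.49 percentage points (-2.80 to -0.12), and its interval included 0 under 7 of 11 alternatives. The short-arm pairs belonged to 193 sets, of which 129 (66.8%) had members outside chromosomes 4 and 10. Of the 386 sets that touched the long arms, 76.2% had such members. Sequences of the lists that are not numbered chromosomes count as outside too. Members on both short arms were found in 4 sets. The most members on a short arm in any set were 3. A set of 17 peaks spread over 9 chromosomes had 349 and 340 tags, at folds of 2.14 and 2.05, and 3 of its members lay on the short arm of chromosome 4 (the first at 2169565 to 2169690). A set of 6, with 308 and 287 tags and folds of 1.57 and 1.55, also had 3 there. Of the sets with 2 members on the short arms, the largest held 26 peaks on 11 chromosomes, its first short-arm member at 1195771 to 1195884, with folds of 2.18 and 2.40. A set of 3 lay wholly on the short arm of chromosome 10, the first at 5080988 to 5081046, each with 500 tags in both lists and folds of 1.16 and 1.15.

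Sets that stayed within a single short arm mostly had close members. There were 54 such sets on the short arms (28.0% of the sets that touched them) and 80 on the long arms (20.7%). The shares differed on chromosome 10, at 40.4% of 57 sets on the short arm against 16.2% of 111 on the long arm. On chromosome 4 they were nearly equal, at 22.1% of 140 sets on the short arm against 20.5% of 303 on the long arm. Of the 55 distances between neighbouring members on the short arms, 51 were under 50 kb, and the median was 8995 bp. On the long arms 61 of 83 were under 50 kb, and the median was 10210 bp. Distances of 8.8 to 9.1 kb, a range chosen after the values were seen, made up 22 of the 55 (40.0%), at 13 places on both chromosomes. On the long arms 2 of 83 distances (2.41%) fell in that range. Others lay just below it, and the median of the 18 long-arm distances on chromosome 10 was 8440 bp. The contrast thus depends on the limits of the range. Sets at one place share their surroundings and are not independent of each other.

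**Figure D5:**
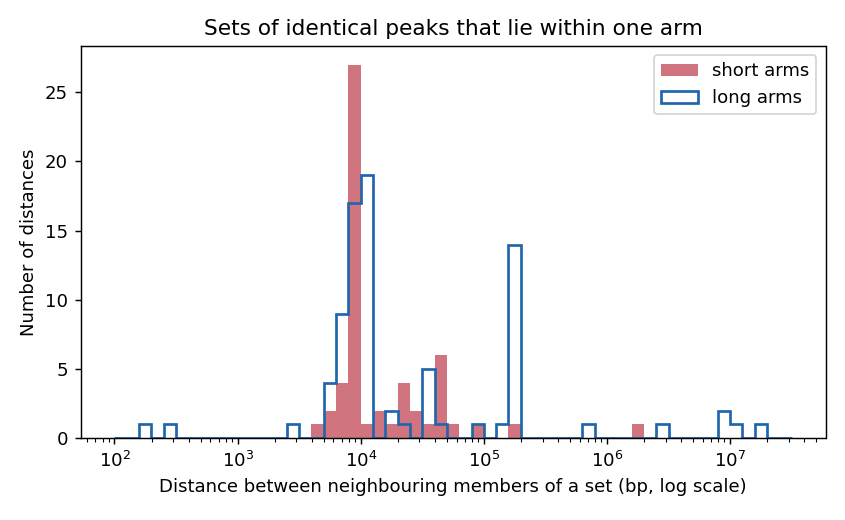
Number of distances (vertical axis) between neighbouring members of sets of identical peaks that lie wholly within one arm, by distance (horizontal axis, bp, log scale), with 55 distances on the short arms filled in red and 83 on the long arms outlined in blue. The short arms have a single high bin near 9 kb, which is wider than 8.8 to 9.1 kb and holds the 22 distances of that range with some others. Long-arm distances also fall in that bin and in the next.

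In several places whole runs of peaks recurred at one fixed distance, on short and long arms alike, found by a search made after the values were seen. On chromosome 4, 5 peaks between 2567070 and 2569173 had identical partners 8915 or 8916 bp farther on, between 2575986 and 2578088, with 322 to 466 tags in replicate 1 and 272 to 471 in replicate 2. On chromosome 10, 5 peaks between 4106253 and 4138197 had partners 43415 to 43417 bp farther on, between 4149668 and 4181614, with 253 to 365 and 247 to 386 tags. Runs of 3 peaks recurred on chromosome 10 at 8881 bp (first copy 4900367 to 4901379), at 8906 or 8907 bp (4810641 to 4812629) and at 9383 bp (5744020 to 5744668). The run at 8906 or 8907 bp had folds of 2.27 to 2.76 in replicate 1 and 2.65 to 2.76 in replicate 2. These were higher than in the other short-arm runs, though not than in all long-arm runs.

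One run on each kind of arm was ordered as a mirror image. On the short arm of chromosome 4, 3 peaks between 3367024 and 3367965 had identical partners between 3390770 and 3391711 at distances of 22865 to 24647 bp, and the summit positions of each pair added up to the same number, 6758735. The partners thus followed each other in reverse order. They held 345 to 486 tags in replicate 1 and 339 to 475 in replicate 2, with folds of 1.41 to 2.10 and 1.36 to 2.08, and they lie in the densest 100 kb of that arm. On the long arms the search found runs of 8 peaks at 10092 bp, of 7 at 162803 to 162805 bp and of 6 at 162647 to 162651 bp on chromosome 4, a run of 4 at 8505 bp on chromosome 10, and 1 mirrored run of 3 on chromosome 4. The runs of 7 and 6 lay side by side, with first copies at 15553960 to 15568106 and at 15577556 to 15587949. Between these first copies began a pair at a distance of 162819 bp. The search split runs where the distance shifted by more than a few bp, so these may form a single longer run. Recurring runs were therefore not particular to the short arms, and the longest were on the long arm of chromosome 4. Whether the same reads were counted at both places was not tested.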

How the data were processed

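Per the submitters' processing notes, cutadapt trimmed the reads and MACS2 called the peaks. According to the headers, this was MACS 2.2.5, run for each replicate against its own input at a q of 0.05, with a genome size set to 400 Mb, tags and fragments of 50 bp and local background windows of 1000 and 10000 bp. The labels give sheared fragments of 200 to 500 bp. Aligner, build and the handling of multiply mapped reads: not given in the sources used here.

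The deposited pileup is a signal, the tags over the summit scaled to the smaller library (0.960 and 0.981). Divided by that scale, 100% of pileups came out whole (tolerance 0.02). From the fold enrichment, deposited as a ratio, the input background was recomputed. Significance, as p and q, was deposited on the −log10 scale. Peak limits and length, as deposited, are in bp, and positions are 1-based.

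The short arms span base 1 to the limit, and the long arms end at the largest peak end (35.5 and 23.2 Mb). Arms were compared by densities, medians and shares in each list, with exact Poisson and Wilson intervals. Replicates were set against Poisson sampling over distinct pairs whose summits lay within 50 bp. The overlap and density code was tested on simulated data. The members, classes and alternatives were chosen with earlier results of these data known. Named peaks are the 5 of highest smaller-of-both fold, the most significant and the widest shared peak of each short arm, the densest and sparsest 500 kb windows, and the 4 sets with the most short-arm members. The gene table at hand is of another assembly and was not used. Python 3.11.15, NumPy 2.4.6, pandas 2.3.3, SciPy 1.17.1 and Matplotlib 3.10.9 were used.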

Additional observations from a re-analysis of the deposited data

Results flagged for a closer look

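Counted per Mb, peaks of at least 200 bp went in opposite directions on the chromosomes in both lists. The ratio of short to long arm in wide peaks per Mb was 1.66 in replicate 1 and 1.53 in replicate 2 on chromosome 4, and 0.799 and 0.915 on chromosome 10. The difference between the chromosomes was not tested, and on chromosome 10 the intervals of both arms overlapped.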

How the results depend on the processing

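The density, background and low-background density ratios and the fold, shared and identical differences, the first 5 as means of both lists, kept their direction in all 71 values from 17 alternatives. The 10 values that leave out 1 of the 2 lists cannot move past 1 SD by construction, and 1 value (low background under 450 tags) equals the reported one by construction. Of the other 60, 39 moved by less than the spread (1 SD of both lists, or the interval for identical sets) and 21 by more. That SD comes from 2 lists counted as 1 sample, and was 0.003 for the low-background density ratio and 1.21 points for sharing. The tally is therefore no measure of stability. In 3 of the 60, 1 list turned while the mean did not. With a fold of at least 2, replicate 1 had a background ratio of 0.979 and a fold difference of 0.01. On chromosome 4 alone, replicate 1 had a shared difference of 0.40 points. The interval of the identical difference included 0 under 7 of its 11 alternatives. The density ratio, 1.55, was 1.59 with arm limits 1 Mb farther from the centromere, 1.5 with −log10 q of at least 5, 1.34 with a fold of at least 2, 1.49 with peaks under 450 tags, 1.71 on chromosome 4 alone and 1.39 on chromosome 10 alone. The background ratio, 1.09, was 1.01 with a fold of at least 2, 1.05 under 450 tags and 1.13 on chromosome 10. The fold difference, -0.058, was -0.00783 with a fold of at least 2 and -0.0908 on chromosome 10. The identical difference, -1.49 points, was -4.68 at any width. The low-background density ratio, 1.19, was 1.27 and 1.18 with limits farther and nearer, 1.23 with the stricter q, 1.21 with a fold of at least 2, 1.15 on chromosome 4, 1.22 on chromosome 10, 1.16 and 1.36 with background limits of 1.5 and 3 times, and 1.26 without the densest 500 kb window of each arm. That last alternative was chosen after seeing the data. The cause of these shifts was not tested. With either replicate left out, the values ran from 1.53 to 1.57 for density, 1.07 to 1.11 for background, -0.0717 to -0.0444 for fold, -2.48 to -0.76 points for sharing and 1.19 to 1.2 for low background. Identical sets need both lists, so no replicate was left out there. No paired analysis was possible because the results come from no test, although the arms are compared within each list throughout. The 500-tag limit bounds folds at high background, and at low background few peaks per Mb limit the precision.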
